A study of Rattus norvegicus with 109 samples.

Results

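Alox5ap, Ltb4r and Ptgr1 are 3 of the 19 genes assayed by quantitative PCR in 109 sections cut by laser capture from the rat nucleus of the solitary tract. This nucleus (NTS) lies in the brainstem, where baroreceptor signals enter the brain. They were chosen by name, one for each of synthesis, reception and inactivation of leukotriene B4, and all 3 were found in the table. Spontaneously hypertensive rats (SHR) were compared with Wistar Kyoto rats (WKY), the normotensive strain they are usually set against. The series states that the strains were age-matched without giving the age in the labels used here.

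The groups were SHR Cocktail with 17 sections of 5 rats, SHR Scrambled with 15 sections of 2 rats and SHR Sham with 27 sections of 1 rat. In WKY they were Cocktail with 27 sections of 4 rats, Scrambled with 15 sections of 5 rats and Sham with 8 sections of 3 rats. Cocktail was taken to be the 25 uL injection of the combined inhibitors, equal parts of 10 uM locked nucleic acid antisense oligonucleotides against miR-376a and miR-135a. Scrambled was an oligonucleotide of the same chemistry that matches no known transcript, and Sham was cannula placement with an empty needle. The number 4614 stands on WKY sections of Cocktail and of Scrambled, and the rat counts follow the animal numbers, although the series speaks of 4 to 5 rats per group. Whether rats of a group came from separate litters is not stated, so the tests below measure the spread between these animals.

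The inhibited microRNAs are shown because they define the Cocktail groups. The labels do not name the arm, so both mature arms of each are printed from RefSeq on assembly GRCr8, 5′ to 3′, with the seed, bases 2 to 8, in capitals. The 4 seeds are all different. The miR-376a arms lie on the plus strand of chromosome 6 (134559383 to 134559403 and 134559421 to 134559441), and the miR-135a arms on the minus strand of chromosome 7 (28499221 to 28499243 and 28499183 to 28499204). No match between these seeds and the 3 transcripts was looked for.
rno-miR-376a-5p: gGUAGAUUcuccuucuaugag
rno-miR-376a-3p: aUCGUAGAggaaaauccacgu
rno-miR-135a-5p: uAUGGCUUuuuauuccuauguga
rno-miR-135a-3p: uGUAGGGAuggaagccaugaaa

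Leukotrienes are lipid mediators made from arachidonic acid. The product of Alox5ap, 5-lipoxygenase activating protein, presents arachidonic acid to 5-lipoxygenase in the nuclear membrane, and leukotriene B4 is one of the end products. Ltb4r encodes the high-affinity receptor for leukotriene B4, a G protein-coupled receptor best known from leukocytes. Ptgr1 encodes an enzyme that oxidises leukotriene B4 to a less active form and also reduces prostaglandin metabolites. Leukotriene B4 in the NTS has been studied in connection with blood pressure in SHR.

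Levels below are the normalised values, minus ΔCt on the log2 scale, where a value higher by 1 means one more doubling of product and so more RNA. The mean over the sections of a rat was the unit of each test, and n counts rats. Limma over all 19 genes with Benjamini-Hochberg adjustment gave the tests, with a threshold of 0.05. The level of one gene is not set against that of another, since each assay has its own efficiency. Median raw cycle numbers (Ct) of sections, a stand-in for RNA input, ran from 11.3 to 17.1 in SHR and from 10.8 to 23.1 in WKY, and the 9 sections above 18 were all from WKY. The constant subtracted by the authors was the section's median in 59 of 59 SHR and 1 of 50 WKY sections, and lay on average 0.17 below the median in WKY. Of the marker lists for cell types, Th and Dbh (catecholamine neurons) were measured, and 0 of 27 markers of microglia, leukocytes, astrocytes, oligodendrocytes, endothelium or neurons in general. Only Dbh and Th thus bear on which cells the sections held. Fewer cells of a type and less RNA per cell cannot be told apart in such sections.

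Alox5ap, the synthesis gene, was far higher in SHR than in WKY in each procedure. After Cocktail the 5 SHR rats had levels of 0.74, -0.01, 1.18, 2.45 and 1.62, against -3.53, -3.23, -2.82 and -3.41 in the 4 WKY rats. After Scrambled the SHR rats had 0.50 and 1.38, against -2.88, -3.83, -2.79, -3.16 and -2.98 in WKY. The Sham SHR rat was at 1.32, against -3.68, -2.69 and -3.11 in WKY. The lowest SHR rat, at -0.01, stood well above the highest WKY rat, at -2.69, so the strains did not overlap. This was not particular to Alox5ap. Over all procedures Ace, the angiotensin-converting enzyme, and Jun, an immediate-early factor, did not overlap either. Both were lower in SHR, by -3.59 and -4.97, and they were named here after their values were seen. After Cocktail alone, more of the genes reported here did not overlap. Besides Alox5ap, Ace and Jun these were Agtr1a, Agtrap, Dbh, Il10 and Rgs4, also named after their values were seen.

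Averaged over the 3 procedures with equal weight, Alox5ap was at 1.15 in SHR and -3.18 in WKY, a difference of 4.33 with a standard error of 0.353 (95% confidence interval 3.59 to 5.07). This is a 20.1-fold higher level in SHR (interval 12.02 to 33.69), if product doubles in each cycle, with 8 SHR and 12 WKY sets of sections (limma, adjusted p = 9.41e-09). In this comparison 52.6% of the 19 genes passed, 4 higher and 6 lower in SHR, so a strain difference was common in this table. Of the measured markers of catecholamine neurons, Dbh, which makes noradrenaline, was at -4.61 in SHR and -1.36 in WKY, a difference of -3.25 over all procedures (limma, adjusted p = 0.00301). Its rat means ran from -7.70 to -1.78 in SHR and from -3.72 to 0.99 in WKY. Th, the enzyme of the step that starts catecholamine synthesis, was at 2.64 in SHR and 3.20 in WKY, a difference of -0.56 (limma, adjusted p = 0.632). The part of this marker difference in the Alox5ap result was not tested. An exact permutation test of the strain labels within procedures gave the smallest p it allows, 9.45e-05 over 10584 arrangements (adjusted p = 0.000449, two-sided). This contrast between the strains was already known from earlier work on these data when the genes were chosen.

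Within single procedures the Alox5ap difference lay between 4.07 and 4.48. After Cocktail it was 4.44 (standard error 0.451, limma, adjusted p = 2.73e-07), where 36.8% of genes passed, and the exact permutation test gave p = 0.00794, the smallest possible for 5 against 4 rats (adjusted p = 0.0335). Over both control procedures it was 4.27 (standard error 0.479, limma, adjusted p = 1.19e-06), with 47.4% of genes called. After Scrambled it was 4.07 (standard error 0.562, limma, adjusted p = 2.22e-05), with 42.1% of genes called. After Sham it was 4.48 (standard error 0.776, limma, adjusted p = 0.000379), with 21.1% called, but here 1 SHR rat borrows the spread of the others. The exact permutation test cannot go below p = 0.0476 for 2 against 5 rats or 0.25 for 1 against 3, and its adjusted p was 0.181 after Scrambled and 0.594 after Sham.

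**Figure D1:**
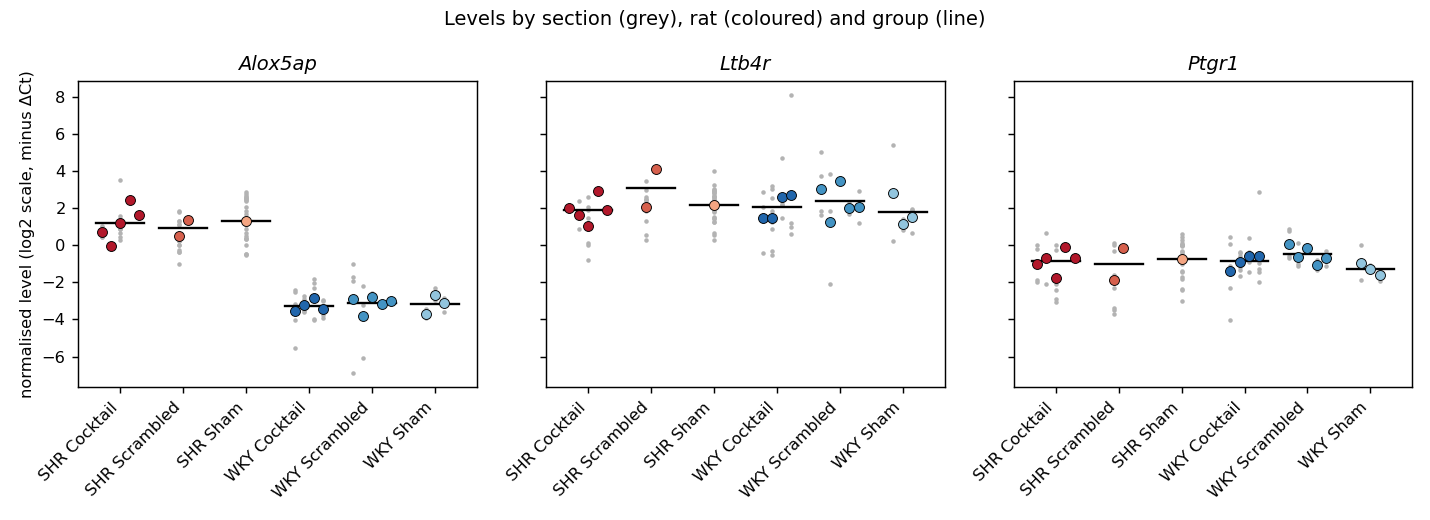
Normalised level (log2 scale) of each gene by group. Grey points are sections, coloured points are rat means and lines are means over rats. Alox5ap rats lie between -0.01 and 2.45 in SHR and between -3.83 and -2.69 in WKY, while SHR and WKY rats overlap for Ltb4r and Ptgr1.

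Single sections showed the same separation of Alox5ap. The 59 SHR sections ran from -0.99 through a median of 1.04 to 3.53, and the 44 WKY sections with a value from -6.90 through -3.04 to -1.02. All 59 SHR sections lay above every WKY section, although the nearest values of the strains were close. On raw Ct relative to Actb all 59 also lay above, on raw Ct centred on the section median 51 of 59 did, and on raw Ct with no normalisation 40 of 59. The median raw Ct of Alox5ap was 13.5 in SHR and 16.6 in WKY.

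Every SHR section had a value for Alox5ap, while 6 of 50 WKY sections lacked one, 5 of Cocktail and 1 of Scrambled rats. These 6 sections had median Ct values of 20.7 to 23.1, later than any SHR section. Within WKY rats, normalised Alox5ap was lower in sections of less input (Pearson r = 0.47 with sign-turned median Ct, 44 sections), whereas r was -0.07 in 56 SHR sections. Restricted to sections with a median Ct of 18 or less, the strain difference over all procedures was 4.14 (standard error 0.366, limma, adjusted p = 2.04e-08), with all 59 SHR sections above all 41 WKY sections. With missing values set at the lowest value of the gene it was 4.60, and with raw Ct and no normalisation 3.75 (limma, adjusted p = 0.000454).

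Ltb4r, the receptor gene, showed no strain difference past the threshold. Rat means after Cocktail were 2.004, 1.65, 1.04, 2.93 and 1.88 in SHR, against 1.49, 1.47, 2.61 and 2.70 in WKY. After Scrambled the SHR rats had 2.08 and 4.12, against 3.05, 1.25, 3.49, 2.02 and 2.06 in WKY. The Sham SHR rat had 2.17, against 2.83, 1.14 and 1.51 in WKY. The strains overlapped in each procedure, and the highest rat mean, 4.12 in SHR Scrambled rat 4604, rests on 1 section.

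The Ltb4r difference between SHR and WKY over all procedures was 0.30 (95% confidence interval -0.64 to 1.25, limma, adjusted p = 0.632), from means of 2.39 in SHR and 2.09 in WKY. It was -0.17 after Cocktail, 0.54 over both control procedures, 0.73 after Scrambled and 0.34 after Sham, with adjusted p between 0.359 and 0.868. The interval over all procedures thus includes differences of up to 1.25. Leaving out 1 rat at a time, except the only SHR Sham rat, gave values from -0.04 to 0.64, and none passed.

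Ptgr1, the inactivation gene, likewise did not differ beyond the spread between rats. After Cocktail the rat means were -1.0035, -0.70, -1.76, -0.06 and -0.67 in SHR, against -1.40, -0.89, -0.59 and -0.55 in WKY. After Scrambled they were -1.85 and -0.15 in SHR, against 0.09, -0.62, -0.16, -1.07 and -0.71 in WKY. The Sham SHR rat was at -0.74, against -0.95, -1.27 and -1.59 in WKY. The single Sham SHR rat stood above its 3 WKY rats, and the groups overlapped after Cocktail and Scrambled. With 1 rat against 3 such separation was usual. Of the genes reported here only Ltb4r, Rgs4 and Th overlapped after Sham.

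The Ptgr1 difference between SHR and WKY over all procedures was 0.01 (95% confidence interval -0.69 to 0.72, limma, adjusted p = 0.971), with means of -0.86 in SHR and -0.87 in WKY. By procedure it was 0.02 after Cocktail, -0.51 after Scrambled and 0.53 after Sham, and it was 0.01 over both control procedures (adjusted p from 0.376 to 0.979). Either Scrambled rat of SHR decides the sign of some of these values. After Scrambled the difference was 0.34 without rat 4600 and -1.35 without rat 4604 (limma, adjusted p = 0.675 and 0.0732), and over all procedures it was 0.30 and -0.27 (adjusted p = 0.468 and 0.554). Ptgr1 had no value in 8 of 59 SHR sections, 5 of them from the 14 sections of Scrambled rat 4600, and in 1 of 50 WKY sections. The 5 sections of SHR Scrambled without a value had a median Ct of 14.5 to 16.6, within the range of sections that had one. Such gaps can be transcripts below detection or failed reactions, which was not tested, and with missing values set at Ct 30 the difference over all procedures was -0.98 (limma, adjusted p = 0.399) and that after Scrambled -2.77 (adjusted p = 0.0891).

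Cocktail was then set against Scrambled, to ask whether inhibition of the microRNAs changed the 3 transcripts. No member passed in either strain, where 10.5% of genes passed in SHR and 0% in WKY. An unadjusted p under 0.05 was seen for 5 of 19 genes in SHR, none of them a member, and for 0 in WKY. The exact permutation test called 0 genes in either strain. In SHR, Alox5ap averaged 1.20 ± 0.92 (SD, n = 5) with Cocktail and 0.94 ± 0.62 (SD, n = 2) with Scrambled, a difference of 0.26 (95% confidence interval -0.93 to 1.44). Without rat 4600 this Alox5ap difference was -0.18, without rat 4604 it was 0.70, and on raw Ct with no normalisation it was 1.86 (limma, adjusted p = 0.973, 0.485 and 0.323). In WKY it averaged -3.25 ± 0.31 (SD, n = 4) with Cocktail and -3.13 ± 0.42 (SD, n = 5) with Scrambled, a difference of -0.12 (interval -1.07 to 0.83). These differences of Alox5ap were small beside the strain difference and inside the spread between rats.

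Ltb4r had the largest Cocktail difference of the 3 genes in SHR. It averaged 1.90 ± 0.69 (SD, n = 5) with Cocktail and 3.10 ± 1.44 (SD, n = 2) with Scrambled, a difference of -1.20 (95% confidence interval -2.71 to 0.30, limma, adjusted p = 0.332). The value depends on which Scrambled rat is used, since it was -0.18 without rat 4604 and -2.22 without rat 4600 (limma, adjusted p = 0.935 and 0.189). In WKY Ltb4r averaged 2.07 ± 0.68 (SD, n = 4) with Cocktail and 2.37 ± 0.89 (SD, n = 5) with Scrambled, a difference of -0.31 (interval -1.51 to 0.90).

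Ptgr1 averaged -0.84 ± 0.62 (SD, n = 5) with Cocktail and -0.997 ± 1.20 (SD, n = 2) in the Scrambled group of SHR, a difference of 0.16 (95% confidence interval -0.96 to 1.28). Without rat 4600 this Ptgr1 difference was -0.69, without rat 4604 it was 1.01, and with missing values at Ct 30 it was 1.87 (limma, adjusted p = 0.882, 0.256 and 0.366). In WKY it averaged -0.86 ± 0.39 (SD, n = 4) with Cocktail and -0.49 ± 0.46 (SD, n = 5) with Scrambled, a difference of -0.37 (interval -1.27 to 0.53). The difference between the strains in the Cocktail response was 0.38 for Alox5ap, -0.89 for Ltb4r and 0.52 for Ptgr1 (limma, adjusted p = 0.709, 0.676 and 0.676), with 0% of genes called and 2 at an unadjusted p under 0.05.

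Comparisons with Sham also gave no call, 0% of genes passing in each. In SHR, where Sham is 1 rat, Cocktail minus Sham was -0.12 for Alox5ap, -0.27 for Ltb4r and -0.10 for Ptgr1. Scrambled minus Sham in SHR was -0.38 for Alox5ap, 0.94 for Ltb4r and -0.26 for Ptgr1. In WKY, Cocktail minus Sham was -0.09, 0.24 and 0.41 for the same order of genes. Scrambled minus Sham in WKY was 0.03 for Alox5ap, 0.55 for Ltb4r and 0.78 for Ptgr1 (Ptgr1 95% confidence interval -0.20 to 1.76, limma, adjusted p = 0.304). An unadjusted p under 0.05 was seen for 0, 1, 0 and 2 of 19 genes in these comparisons in the order given, none of them a member, and the exact permutation test called 0. Cocktail and Scrambled share the Sham rats as a baseline, so these values are not independent.

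**Figure D2:**
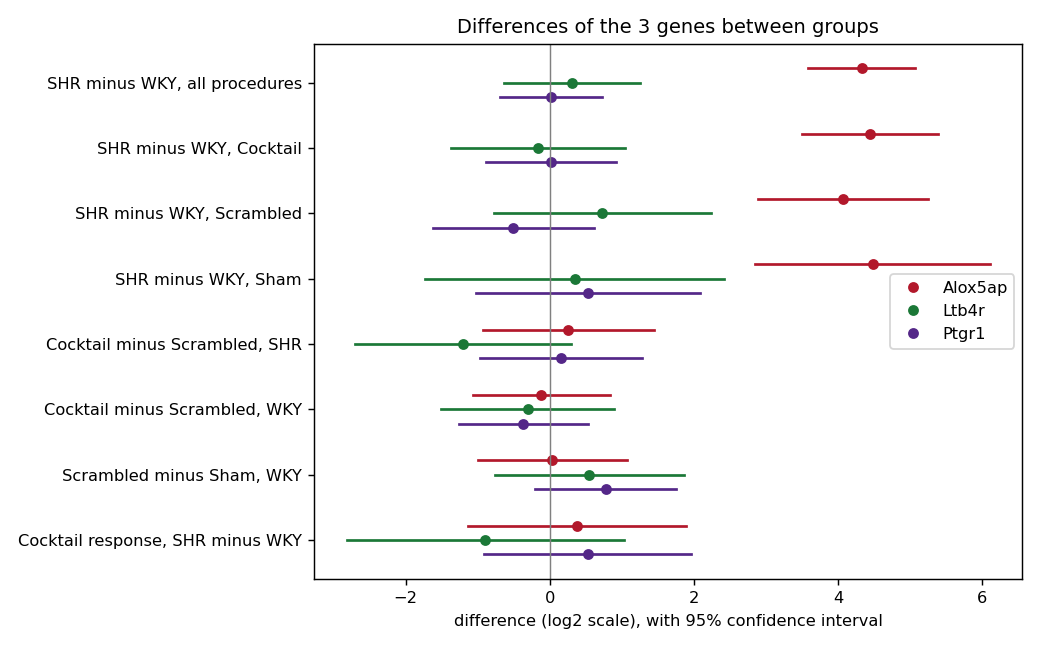
Differences of the 3 genes between groups on the log2 scale, with 95% confidence intervals from limma. The Alox5ap strain differences of 4.07 to 4.48 stand apart, and every interval of Ltb4r and Ptgr1 and every procedure difference includes 0.

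Ordered by level, the groups split by strain for Alox5ap and not for the other genes. Alox5ap ran from SHR Sham (1.32) through SHR Cocktail (1.20), SHR Scrambled (0.94), WKY Scrambled (-3.13) and WKY Sham (-3.16) to WKY Cocktail (-3.25). The only neighbours that differed were SHR Scrambled and WKY Scrambled. For Ltb4r the order was SHR Scrambled (3.10), WKY Scrambled (2.37), SHR Sham (2.17), WKY Cocktail (2.07), SHR Cocktail (1.90) and WKY Sham (1.83), with no neighbours past the threshold. For Ptgr1 it was WKY Scrambled (-0.49), SHR Sham (-0.74), SHR Cocktail (-0.84), WKY Cocktail (-0.86), SHR Scrambled (-0.997) and WKY Sham (-1.27), again with none.

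Differences between 2 genes of the same section do not depend on the constant subtracted from it. Their level still depends on the efficiency of both assays, so only their change between groups is read. Over all procedures the strains differed by 4.33 for Alox5ap, 0.30 for Ltb4r and 0.01 for Ptgr1. The pairs with Alox5ap thus largely restate its own difference and are not separate evidence. Synthesis minus inactivation, Alox5ap minus Ptgr1, ranged over rats from 0.69 to 3.10 in SHR (median 2.21, 8 rats) and from -3.34 to -1.42 in WKY (median -2.35, 12 sets). The strains did not overlap, and the difference over all procedures was 4.39 (standard error 0.461, limma, adjusted p = 2.04e-07 over all 171 gene pairs), 21.03-fold. Of all gene pairs, 64.3% passed in this comparison, and how many did not overlap was not counted.

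Synthesis minus reception, Alox5ap minus Ltb4r, ranged over rats from -2.75 to 0.14 in SHR (median -1.06) and from -6.51 to -3.83 in WKY (median -5.32), again with no overlap. Its strain difference was 4.07 (standard error 0.491, limma, adjusted p = 1.30e-06), 16.7-fold. Reception minus inactivation, Ltb4r minus Ptgr1, overlapped between the strains over all rats, from 2.35 to 4.27 in SHR and from 1.87 to 3.78 in WKY, with a difference of 0.30 (95% confidence interval -0.57 to 1.16, limma, adjusted p = 0.542). It was -0.16 after Cocktail, 0.52 over both control procedures and 1.17 after Scrambled (limma, adjusted p = 0.829, 0.450 and 0.133). After Scrambled the 2 SHR rats, at 3.81 and 4.27, lay above the 5 WKY rats, of which the highest was at 3.65. The share of all pairs that separated in this way was not counted. Both pairs with Alox5ap passed in every strain comparison run on pairs. Alox5ap minus Ptgr1 was 4.397 after Cocktail, 4.39 over both control procedures and 4.76 after Scrambled, and Alox5ap minus Ltb4r was 4.50, 3.85 and 3.56 (limma, adjusted p at most 0.00109). The shares of all pairs called there were 40.9%, 53.2% and 57.9%.

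Ltb4r minus Ptgr1 was 3.01, 2.35, 2.93, 2.99 and 2.55 in the 5 SHR Cocktail rats, against 3.81 and 4.27 in the 2 SHR Scrambled rats. The SHR groups did not overlap, but how many of all pairs separated in this way was not counted. The difference of -1.27 did not pass (95% confidence interval -2.66 to 0.11, limma, adjusted p = 0.201), and neither did any other pair of members. Of all 171 pairs, 5.26% passed in this comparison, and 52 pairs had an unadjusted p under 0.05, none of them a pair of members. In Cocktail against Scrambled in WKY 0% passed (4 pairs at an unadjusted p under 0.05), and 0% in the strain difference of the Cocktail response (30 pairs). In WKY the same difference was 0.06 (interval -1.05 to 1.17), and the response of the strains differed by -1.33 (interval -3.10 to 0.44, limma, adjusted p = 0.381).

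**Figure D3:**
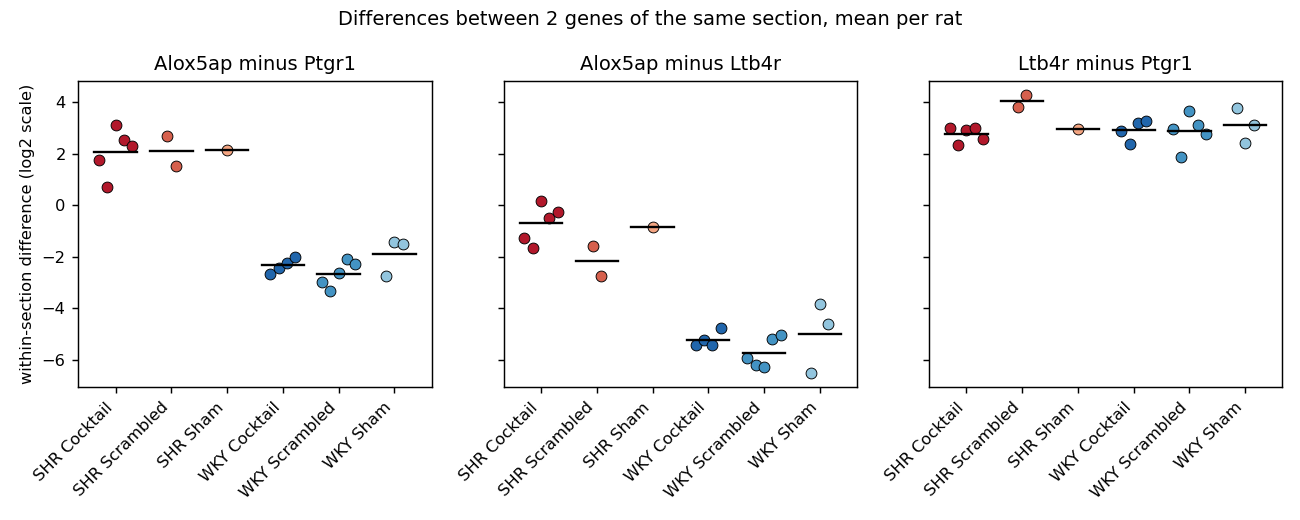
Within-section differences between 2 genes (log2 scale), as means per rat (points) and over rats (lines). The 2 panels with Alox5ap separate SHR from WKY in every procedure, and Ltb4r minus Ptgr1 does so only after Scrambled, where the difference of 1.17 did not pass. SHR Scrambled holds 2 rats and SHR Sham 1. The share of all pairs that separated in this way was not counted.

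The 3 genes were then followed from section to section within rats. Correlations are descriptions, because sections of a rat share its tissue and all genes of a section share its RNA input and subtracted constant. Deviations of sections from their rat mean gave Pearson r = 0.53 (Spearman rho = 0.44) for Ltb4r and Ptgr1 over 97 sections, 0.27 (0.34) for Alox5ap and Ptgr1 over 92, and 0.07 (0.19) for Alox5ap and Ltb4r over 100. Over all 171 gene pairs r had a median of 0.06 and ran from -0.55 to 0.80, and 6 pairs had a higher r than Ltb4r and Ptgr1.

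The values by strain were as follows, and the difference between the strains was not tested. Ltb4r and Ptgr1 had r = 0.27 in 48 SHR sections and 0.78 in 49 WKY sections. Alox5ap and Ltb4r had r = 0.49 in 56 SHR sections and -0.32 in 44 WKY sections. Alox5ap and Ptgr1 had r = 0.40 in 48 SHR sections and 0.07 in 44 WKY sections. Of all 171 pairs, 64 had a higher r than Ltb4r and Ptgr1 in SHR and 1 in WKY. For Alox5ap and Ltb4r these counts were 22 and 138, and for Alox5ap and Ptgr1 35 and 82. Among single rats with 6 or more sections, Ltb4r and Ptgr1 ran from -0.07 in SHR Sham rat 4596 (26 sections) to 0.95 in WKY Cocktail rat 4612 (6 sections). These values move with the 9 late WKY sections. Without the sections of a median Ct above 18, the r over both strains was 0.39 for Ltb4r and Ptgr1, 0.41 for Alox5ap and Ptgr1 and 0.31 for Alox5ap and Ltb4r. Then 26 of 171 pairs had a higher r than Ltb4r and Ptgr1, and in the 41 WKY sections left r was 0.70 for Ltb4r and Ptgr1, 0.43 for Alox5ap and Ptgr1 and -0.03 for Alox5ap and Ltb4r. One late WKY Cocktail section of rat 4614 held the highest value of both genes, 8.12 for Ltb4r and 2.90 for Ptgr1.

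Across rats, deviations of the 19 rat means from their group mean, leaving out the single SHR Sham rat, gave r = 0.82 and rho = 0.83 for Ltb4r and Ptgr1. Of 171 pairs, 1 had a higher r. Without the 2 rats farthest from the median of Ltb4r, r was 0.80, and it was 0.95 in 7 SHR and 0.75 in 12 WKY sets. The 2 SHR Scrambled rats mirror each other around their group mean, so they count as 1 point in the 0.95 and 0.82. Rats 4598, 4602 and 4604 rest on 1 section each, so their means also carry the covariation of sections. The pairs with Alox5ap had r = 0.43 each. These points share the subtracted constant and are not read as co-regulation.

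**Figure D4:**
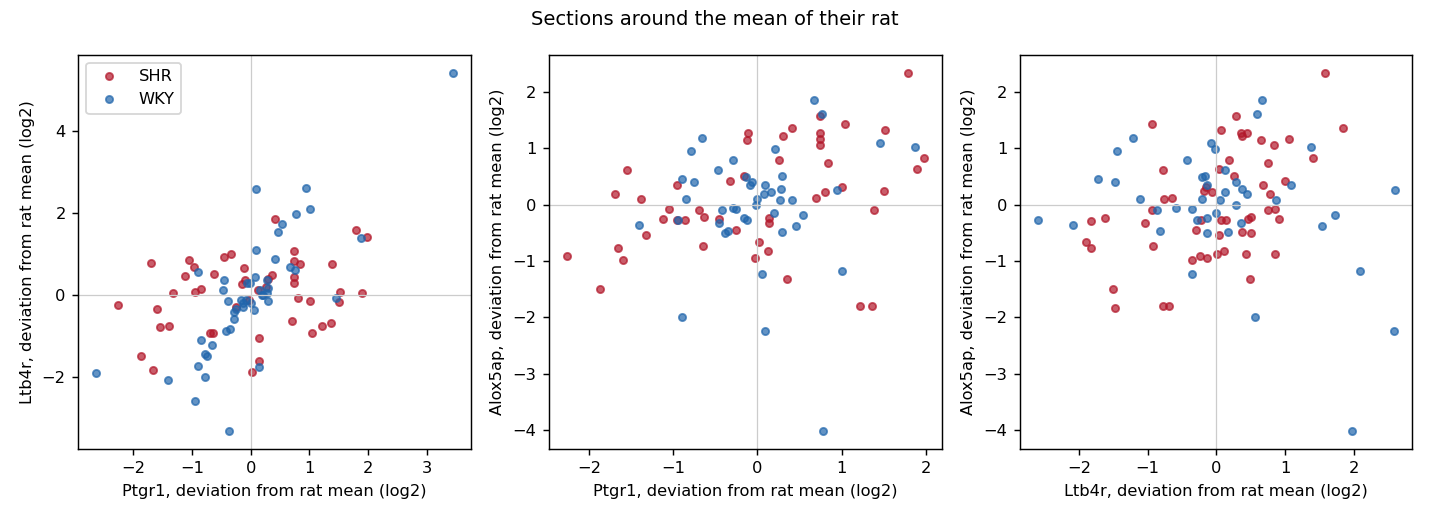
Deviation of each section from the mean of its rat (log2 scale) for the 3 pairs of genes, with SHR and WKY in separate colours. Ltb4r and Ptgr1 have r = 0.53 over 97 sections (0.27 in SHR, 0.78 in WKY), and Alox5ap and Ltb4r have r = 0.07.

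The genes whose patterns were most like those of each member were named by rank over the 20 rat means and over section deviations. Alox5ap was most like Agtrap, an angiotensin receptor-associated protein (Spearman rho 0.73), and Fos, an immediate-early factor (0.64), over rat means, and like Ace, the angiotensin-converting enzyme (Pearson r 0.59), and Agtrap (0.58) over sections. Agtrap and Fos were also higher in SHR over all procedures, by 0.94 and 1.74 (limma, adjusted p = 0.0178 for both). Fos had r = 0.25 with Alox5ap over sections. Ace, which was lower in SHR, nevertheless had rho = -0.59 with Alox5ap over rat means. Ltb4r was most like Ptgr1 (0.66) and EiF4e, a cap-binding translation factor (0.44), over rat means, and like Ptgr1 (0.53) and Th, the catecholamine enzyme (0.52), over sections. Ptgr1 was most like Ltb4r and Th (both 0.66) over rat means, and like Actb (0.68), a cytoskeletal reference transcript, and Ltb4r (0.53) over sections.

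Sections of a rat varied more than rats of a group did. The SD between sections within rats was 1.03 for Alox5ap, 1.29 for Ltb4r and 1.07 for Ptgr1, against a median of 1.42 over genes, and the SD between rats was estimated at 0, 0.43 and 0 for the same genes. Ltb4r had a within-rat SD of 0.90 in SHR and 1.68 in WKY. A rat with 1 section, of which SHR Cocktail had 2 and SHR Scrambled 1, is therefore known to about that within-rat SD.

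Other genes of the eicosanoid pathway measured were the cyclooxygenases Ptgs1, the constitutive form, and Ptgs2, the inducible form, so that 5 of 16 listed genes had values. Over all procedures 1 of these 5 was higher in SHR (Alox5ap) and 0 lower, where 52.6% of the 19 genes were called. The list's median difference was 0.02, beside -0.43 over the 18 genes reported here. Ptgs1 differed by -0.76 (95% confidence interval -1.51 to -0.01, limma, adjusted p = 0.0767) and Ptgs2 by 0.02 (limma, adjusted p = 0.971). The Ptgs2 value averages -0.93 after Cocktail, 2.60 after Scrambled and -1.60 after Sham, the last 2 with 1 SHR rat each. Only 6 SHR rats had a value for Ptgs2. The exact permutation test within procedures put Ptgs1 past the threshold (adjusted p = 0.0326). In Cocktail against Scrambled in SHR, 1 of the 5 was called, Ptgs2, with a difference of -4.04, where 10.5% of all genes passed. It rests on 4 Cocktail rats and 1 Scrambled rat, and the exact permutation test called 0 genes there. The list's median was 0.16 beside 0.21. In WKY 0 of the 5 passed, beside 0% of all genes. Of the inflammatory list, 3 of 7 genes were measured. Over all procedures 1 was higher and 1 lower in SHR, again beside 52.6% of all genes called. In Cocktail against Scrambled 0 of the 3 passed in either strain, beside 10.5% of all genes in SHR and 0% in WKY.

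**Figure D5:**
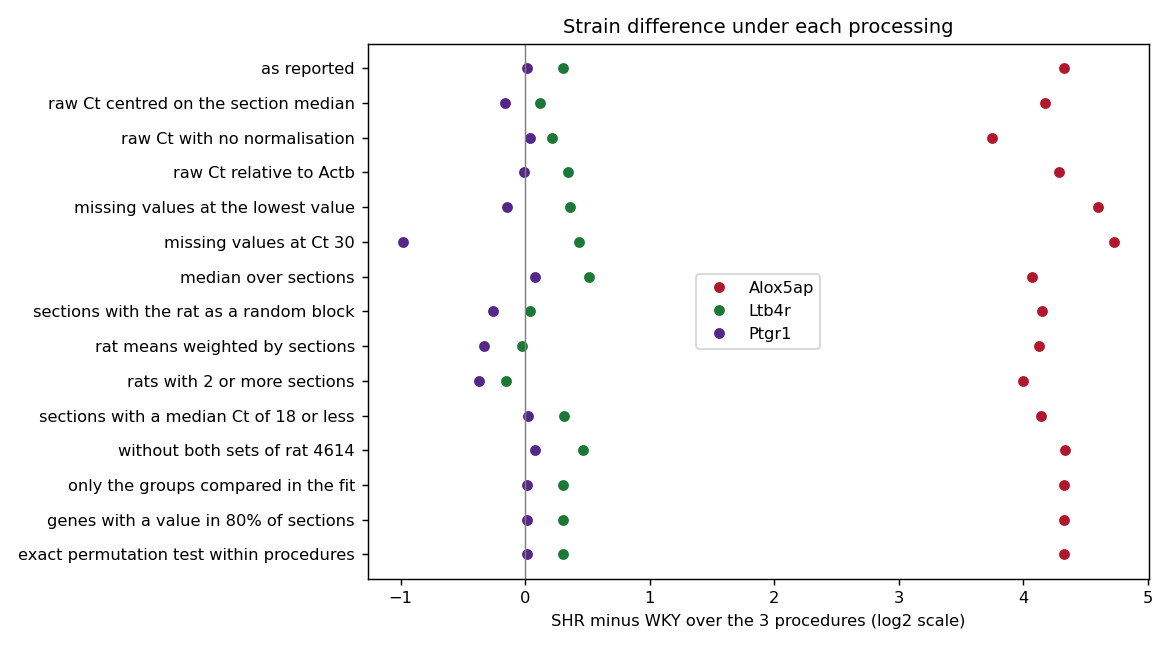
Strain difference over the 3 procedures (log2 scale) of each gene under each way of processing the values. Alox5ap stays between 3.75 and 4.73, Ltb4r between -0.15 and 0.52, and Ptgr1 between -0.98 and 0.08.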

How the data were processed

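RNA of laser-captured NTS sections was measured on BioMark microfluidic chips with EvaGreen dye over 30 cycles of PCR, according to the labels' protocols. The authors deposited raw cycle numbers (Ct), a score from 4.52 to 29.0, and normalised values on a log2 scale, minus ΔCt, whose direction was found from the values. No software version is named by the labels used here. In 44 WKY sections the normalised values matched another raw section name of the same rat, so rat means were unaffected. Both deposited tables lack the same 160 of 2071 values. Depth in reads does not exist for these data.

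Section values were averaged per rat and procedure (20 sets from 19 animal numbers) and fitted with limma 3.58.1 in R 4.3.3, the 6 groups as the only factor. Benjamini-Hochberg adjustment covered the 19 genes, or the 171 gene pairs, of each comparison. The values of 1 gene are not reported here, although it entered the fits. Folds assume a doubling per cycle. Exact permutation tests moved rats between groups. Spreads came from lme4 1.1.37. The code was tested on simulated data. Alternatives changed the normalisation, missing values, weighting of sections, sections and rats used, and test. The named genes were the members, all measured pathway genes and the 2 genes ranking highest in likeness to each member. The measured cell markers, Jun, Agtr1a, Il10 and Rgs4 were named besides. The members and lists were chosen with earlier results of these data known.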

Additional observations from a re-analysis of the deposited data

How the results depend on the processing

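The strain difference of Alox5ap over all procedures passed in 14 of 14 other settings (3.75 to 4.73) and in 19 of 19 fits without 1 rat (4.18 to 4.48), and after Cocktail in 14 of 14 and 9 of 9. After Scrambled its value of 4.07 did not pass the exact permutation test (adjusted p = 0.181). After Sham, 3.12 with no normalisation (limma, adjusted p = 0.216) and 4.48 by the exact permutation test (adjusted p = 0.594) did not pass. For Ptgr1 after Scrambled, weighting rats by sections gave -1.21 (limma, adjusted p = 0.0203), and Ltb4r minus Ptgr1 after Scrambled was 1.63 with missing values at the lowest value (limma, adjusted p = 0.0488). Over all procedures, Ltb4r changed sign in 2 of 14 settings and Ptgr1 in 7, without passing in any. The r of Alox5ap and Ltb4r was 0.63 on raw Ct, where the median over all 171 pairs was 0.72 and 118 pairs were higher.

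Counts of all genes called moved by over 1.5 times as follows. Without normalisation they were 1 of 19 for the strain difference after Cocktail (7 in the reported fit), 5 after Scrambled (8) and 1 after Sham (4), 0 for Cocktail against Scrambled in SHR (2) and 1 for Scrambled against Sham in WKY (0). Weighting by sections gave 14 after Scrambled, 8 after Sham, 9 for Cocktail against Scrambled in SHR, 7 for Scrambled against Sham in SHR and 4 for the strain difference of the Cocktail response. The rat as a random block gave 7, 8, 3 and 4 in the order Sham, Cocktail against Scrambled in SHR, Scrambled against Sham in SHR and response, and 2 for Scrambled against Sham in WKY. The exact test called 0 after Scrambled, after Sham and for Cocktail against Scrambled in SHR. For that SHR comparison, section median centring, both fills of missing values, rats with 2 or more sections and well-filled genes gave 1, and Actb or only its groups gave 0. Rats with 2 or more sections gave 1 for Scrambled against Sham in SHR and 1 for the response, the median over sections 1 for the response, and Actb or early sections 1 for Scrambled against Sham in WKY. Without 1 rat, counts ran from 5 to 9 over both control procedures and from 5 to 10 after Scrambled (5 without SHR rat 4600), from 0 (without rat 1694, 1696, 4598, 4602 or 4600) to 5 (without rat 4604) for Cocktail against Scrambled in SHR, and from 0 up to 1 for Scrambled against Sham in SHR (without rat 4604), 1 in WKY (without rat 4615) and 2 for the response (without rat 4604). Causes were not tested.

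No paired analysis was possible because the numbers in the section names count sections within a group and do not tie rats of different groups. Rat 4614, named in 2 WKY groups, was left out as an alternative. The exact test within procedures was chosen after seeing the data. The limits are the 2 and 1 rats of SHR Scrambled and Sham, sections near the cycle limit in WKY, and constants that differ by strain.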
